A study of Mus musculus with 26 samples.

Results

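Forelimbs of mouse embryos of embryonic stage E13.5 were profiled by bulk RNA sequencing after deletion of Hic1, a transcriptional repressor, and the column names of the conditional libraries carry letters and numbers whose meaning is not stated. The comparison described here sets the 9 libraries whose second name part starts with OB against the 5 whose second name part starts with NZ, 14 of the 17 conditional libraries and of the 26 libraries in the series. These letters are called column letters, since nothing in the labels says that they mark a batch, a litter, a day or a sequencing run. The OB libraries are 5 knockouts (PxCre; Hic1 f/f, columns OB2, OB3, OB4, OB5 and OB8), 3 heterozygotes (PxCre; Hic1 f/+, columns OB1, OB7 and OB10) and 1 control (Hic1 f/+ without Cre, column OB6). The NZ libraries are 2 knockouts (NZ1 and NZ2), 1 heterozygote (NZ4) and 2 controls (NZ3 and NZ5), of the same genotypes. The column of NZ5 carries the further letters MA, whose meaning is not stated either. Every group, controls included, thus carries at least 1 floxed Hic1 allele, and the labels call the controls wild type. The Cre recombinase is driven by Prrx1 and acts in limb bud mesenchyme, so cells of the skin, blood, vessels, nerves and muscle lineage are not its main targets. The other 3 conditional libraries, OA1 (heterozygote), OC1 and OC3 (controls), entered no comparison of OB with NZ other than an alternative fit of all 17 libraries, and are given as values. The labels give E13.5 for every library and no finer measure of embryo stage.

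The E13.5 forelimb is in the middle of tissue formation. Cartilage templates laid down by mesenchymal condensations begin to enlarge, and tendon and muscle connective tissue build a collagen-rich matrix. Myoblasts fuse into fibres and the surface ectoderm starts to stratify. At this age the circulating red cells are still largely primitive erythrocytes carrying embryonic globins, while fetal liver cells with adult globins increasingly enter the blood, and the patterning genes of the early limb bud and the cell cycle genes of its progenitors decline as tissues differentiate.

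Values are FPKM, which count fragments relative to transcript length and library total, in the form deposited by the authors, with depth unknown. Summed FPKM ran from 436559 to 497121 in OB (median 462655) and from 456740 to 494912 in NZ (median 471038), and genes above 0 from 16677 to 17138 in OB and from 17079 to 17194 in NZ, so that the fewest genes in NZ exceeded the OB median of 16974. The median correlation of a library with the others lay between 0.975 and 0.984 in OB and between 0.981 and 0.982 in NZ, and no library stood far apart by this measure. Of the limb identity genes, Prrx1 averaged 142 ± 17.2 FPKM in OB and 134 ± 15.01 in NZ (SD, n = 9 and 5). The forelimb factor Tbx5 averaged 57.7 ± 10.03 and 49.1 ± 4.77, against 1.53 ± 0.432 and 1.92 ± 0.425 for the hindlimb factor Pitx1. A further hindlimb factor, Tbx4, was expressed as well, at 6.96 FPKM in OA1 and 6.61 in OC3, both inside the OB and NZ ranges, and 5.40 in OC1. Its log2 difference between OB and NZ was 0.05 (limma, adjusted p = 0.764). Hic1 was 2.76 to 6.16 FPKM in the OB knockouts and 4.66 and 4.28 in the NZ knockouts, against 28.0 to 58.0 in the other OB libraries and 34.9 to 65.8 in the other NZ libraries. With genotype in the model Hic1 had a log2 difference of -0.00 ± 0.13 between OB and NZ (SE, adjusted p = 0.990) and did not pass the test. Xist exceeded 200 FPKM in OB3, OB7 and NZ2, so female libraries occur under both sets of letters.

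Of 12918 genes that averaged 1 FPKM or more in the conditional table, 870 (6.73%) differed between OB and NZ at an adjusted p under 0.05 (limma on log2(FPKM + 1) with genotype as a term, Benjamini-Hochberg), 554 higher in OB (4.29%) and 316 lower (2.45%). The differences higher in OB were many and small, with a median log2 difference of 0.24, a largest value of 1.14 and 15 genes beyond 0.5. Those lower in OB were fewer and larger, with a median of -0.40, a lowest value of -2.39 and 110 genes beyond 0.5. The balance of directions moved with scaling: with each library centred on its median gene 733 genes were called, 358 higher and 375 lower, or 48.8% higher in place of 63.7%. In the same model 21 genes (0.163%) differed between knockout and control, 16 higher and 5 lower. Without NZ1, NZ2, NZ3, NZ5, OB2, OB6 or OB8 that count was 12, 7, 9, 10, 12, 4 or 13. Before adjustment 3543 genes had a p under 0.05 for the column letters and 785 for the knockout.

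The number of calls rested on single libraries. Without NZ4, the lone NZ heterozygote, 1 gene was called, Pspc1, which encodes a paraspeckle protein and was higher in OB. Without OB6, the lone OB control, 4 were called, Pspc1 and 2810408A11Rik higher and Xbp1 and Hspa5, a factor and a chaperone of the unfolded protein response, lower, all 4 named after their values were seen. Unadjusted p-values under 0.05 then numbered 2166 without NZ4 and 2430 without OB6. Leaving out NZ2 gave 90 calls, OB8 289, NZ5 294, NZ3 372 and OB10 400, while leaving out OB4 gave 1268. The 870 genes kept the sign of their difference in each of these 14 fits. They were chosen on the same libraries, so a kept sign was largely fixed in advance and is no separate support. When either lone library was left out, 0 of the 59 called members of the gene lists and 0 of the 58 called genes named by rule passed the threshold, and this limit applies to every call given below. Those 58 had adjusted p-values up to 0.236 without NZ4 and up to 0.189 without OB6. Within the 7 knockouts alone (5 OB, 2 NZ) 2 genes were called, 809 had an unadjusted p under 0.05, and the 870 genes again kept their sign. These 7 libraries were also among the 14 on which the genes were chosen. The column letters, the numbers of the replicates and anything else shared within OB or NZ cannot be told apart.

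**Figure D1:**
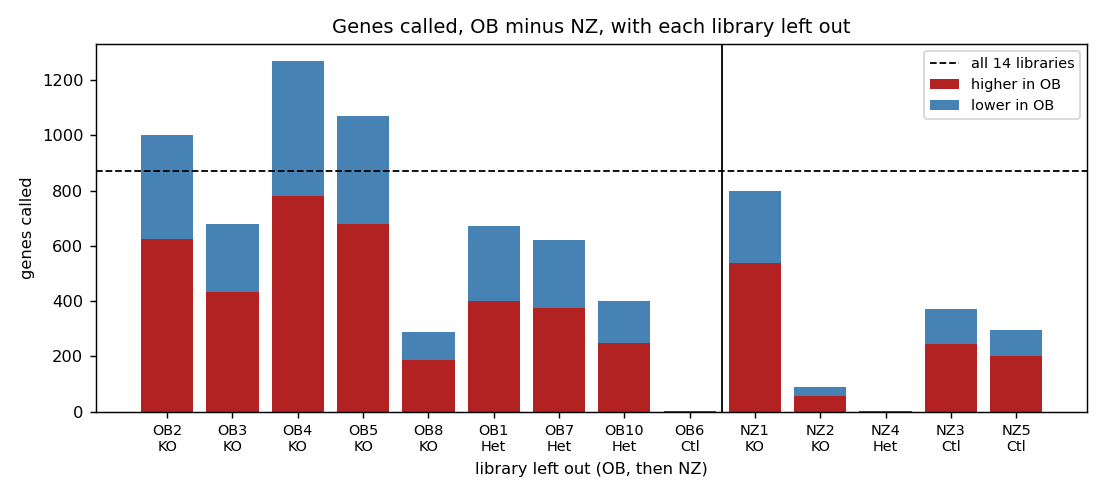
Genes called in OB minus NZ (vertical axis, number of genes at an adjusted p under 0.05) when the library on the horizontal axis was left out, split into those higher (red) and lower (blue) in OB; the dashed line marks the 870 calls with all 14 libraries. The bars for OB6 and NZ4 stand at 4 and 1 genes, and the tallest, for OB4, at 1268.

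Of the cartilage genes 5 passed the test, each lower in OB. Over all genes tested 4.29% were called higher, 2.45% were called lower and 54.5% had a positive difference, and the counts of each list stand against these shares. The list holds 21 tested genes of the growing cartilage template, of which 0 were called higher, 5 were called lower and 18 had a negative difference. Its median was -0.44 against 0.02 over all genes tested. Matn3, a matrilin that links collagen fibrils and proteoglycans in the cartilage matrix (chromosome 12, 8947929 to 8972028, mm10), ran from 2.70 to 6.19 FPKM in OB with a median of 5.15, against 9.54 and 7.30 in the NZ knockouts, 7.80 in the NZ heterozygote and 8.93 and 5.06 in the NZ controls. Only the control NZ5 fell inside the OB range. The group means were 4.52 ± 1.43 in OB and 7.73 ± 1.74 in NZ (SD, n = 9 and 5), a log2 difference of -0.79 ± 0.19 (SE, adjusted p = 0.0355).

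Hapln1, the link protein that fastens aggrecan to hyaluronan, was 27.9 ± 6.71 FPKM in OB and 45.6 ± 9.83 in NZ (log2 difference -0.74, adjusted p = 0.0323). Comp, a pentameric matrix protein of cartilage and tendon, was 5.03 ± 2.13 in OB and 9.003 ± 2.12 in NZ (-0.96, adjusted p = 0.0376). Lect1, the older symbol of chondromodulin, was 28.1 ± 10.04 in OB and 51.3 ± 8.76 in NZ (-0.94, adjusted p = 0.0398), and 3110079O15Rik, now named Snorc and encoding a chondrocyte membrane proteoglycan, was 11.2 ± 5.80 in OB and 23.4 ± 3.83 in NZ (-1.21, adjusted p = 0.0354). Matn1 had a difference of similar size, with 7.96 to 38.6 FPKM in OB and 23.0 to 45.2 in NZ (-1.13), and missed the threshold (adjusted p = 0.0524). The OB libraries were not uniform in this tissue: the mean deviation of the list on the log2 scale was -0.72 in the heterozygote OB1 and -0.55 in the knockout OB8, but 0.37 and 0.19 in the heterozygotes OB7 and OB10, inside the NZ range of 0.02 to 0.55.

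Markers of hypertrophic cartilage and bone, which follow once chondrocytes enlarge and osteoblasts appear, gave calls in the same direction. Of 14 tested genes 0 were called higher, 4 were called lower and 11 had a negative difference, with a median of -0.49. Col10a1, the collagen of hypertrophic chondrocytes (chromosome 10, 34389981 to 34397085), ran from 0.342 to 1.38 FPKM in OB with a median of 0.779. In NZ it was 3.68 and 3.53 in the knockouts, 1.42 in the heterozygote, and 1.72 and 1.06 in the controls. NZ5 alone lay within the OB range. The means were 0.824 ± 0.362 in OB and 2.28 ± 1.23 in NZ, a log2 difference of -0.94 ± 0.17 (adjusted p = 0.0193).

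Ibsp, the bone sialoprotein of mineralising matrix (chromosome 5, 104299171 to 104311469), was listed at 0 in the OB libraries OB1 and OB3, with an OB median of 0.116 and a highest value of 3.23 in OB4. In NZ it was 11.6 and 3.02 FPKM in the knockouts, 2.81 in the heterozygote, and 0.838 and 1.97 in the controls (log2 difference -1.77 ± 0.35, adjusted p = 0.0224). The NZ1 value was more than any other of the 14, and the ranges overlapped through OB4 and OB5. Phospho1, a phosphatase that starts mineral formation in matrix vesicles, was 1.70 ± 0.538 in OB and 3.10 ± 0.589 in NZ (-0.64, adjusted p = 0.0193), and Ifitm5, an osteoblast membrane protein, was 2.59 ± 0.913 and 4.02 ± 0.627 (-0.64, adjusted p = 0.0280). The osteoblast factor Sp7 (-0.61, adjusted p = 0.0504) and the hypertrophic channel protein Panx3 (-0.81, adjusted p = 0.0586) stood just outside the threshold.

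Genes of the fibrous matrix gave the most calls lower in OB of the 24 lists. Of 26 tested members 0 were called higher, 11 were called lower and 25 had a negative difference, with a median of -0.47. The 11 were Col6a3, Col5a2, Ogn, Sparc, Aspn, Col1a1, Dcn, Dpt, Lox, Eln and Col12a1. Among them are genes of collagens, small leucine-rich proteoglycans, elastin and an enzyme that crosslinks collagen and elastin. For Col5a2 and Ogn the highest OB library lay below the lowest NZ library, a separation found for 103 of the 12918 genes (0.797%). Col5a2, a regulator of collagen fibril diameter, had 56.4, 83.4 and 104 FPKM as the lowest, median and highest OB values, against 111 and 118 in the NZ knockouts, 114 in the heterozygote and 107 and 121 in the controls (log2 difference -0.48 ± 0.11, adjusted p = 0.0304). Ogn, osteoglycin, ran from 31.8 to 84.8 with a median of 57.8 in OB, against 87.9 and 96.9 in the NZ knockouts, 97.2 in the heterozygote and 135 and 109.9 in the controls (-0.88 ± 0.21, adjusted p = 0.0332). Ogn and Aspn are listed at 1 common locus in the deposited table, so the split of reads between these neighbours is less certain.

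Dcn, decorin, which binds and spaces collagen fibrils, showed the unevenness within OB most plainly. The knockouts OB2 and OB4 had 151 and 145 FPKM, inside the NZ values of 122 and 174 in knockouts, 155 in the heterozygote and 181 and 156 in controls, while the other 7 OB libraries ran from 51.2 to 88.2. The means were 88.3 ± 35.9 in OB and 158 ± 23.1 in NZ (log2 difference -0.91 ± 0.24, adjusted p = 0.0414). Fn1, fibronectin, a matrix protein of early mesenchyme, was the 1 member with a positive difference, at 119 to 184 FPKM in OB and 137 to 161 in NZ (0.09, adjusted p = 0.535).

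**Figure D2:**
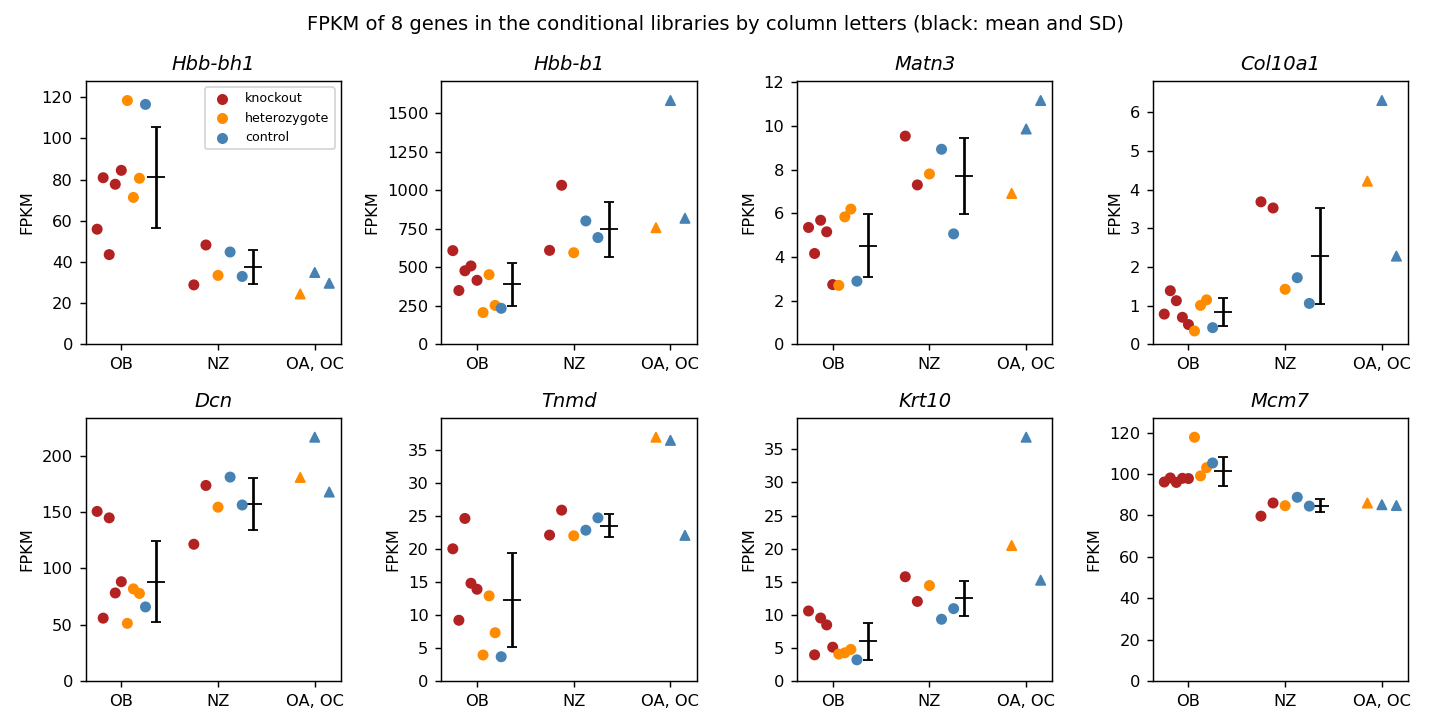
FPKM (vertical axes, from 0) of 8 genes in each conditional library, grouped by column letters along the horizontal axes (OB, n = 9; NZ, n = 5; OA and OC, 3 libraries, triangles) and coloured by genotype; black marks are the mean and SD of OB and NZ. Hbb-bh1 and Mcm7 are higher in OB, the other 6 genes lower, and OB2 and OB4 are the 2 OB libraries of Dcn among the NZ values.

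The tendon list gave 3 of 12 members lower and 0 higher, with a median of -0.42 and 11 negative differences. Tnmd, tenomodulin, a membrane protein of maturing tendon cells (chromosome X, 133850980 to 133865577), was 3.66 to 24.6 FPKM in OB with a median of 12.9. The NZ values lay close together at 22.1 and 25.9 in the knockouts, 21.98 in the heterozygote and 22.8 and 24.7 in the controls. The SD was 7.07 in OB and 1.72 in NZ, OB4 alone reached the NZ range, and the log2 difference was -1.24 ± 0.31 (adjusted p = 0.0375). Thbs2, a matrix thrombospondin, was 7.78 ± 2.60 in OB and 14.1 ± 1.01 in NZ (-0.89, adjusted p = 0.0261), and Col1a1, counted in the matrix list too, was the third. The joint interzone list, whose cells will line the joints, gave 0 calls among 9 members and a median of -0.04; its leading growth factor Gdf5 was 34.6 ± 6.56 in OB and 28.8 ± 3.40 in NZ (0.20, adjusted p = 0.319).

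Contractile muscle genes had a common sign and few calls, with 2.45% called lower over all genes. Each of the 23 tested members had a negative difference, with a median of -0.36 and a range of -0.62 to -0.18, and 1 was called lower. That was Ckm, muscle creatine kinase, at 0.811 ± 0.339 FPKM in OB and 1.64 ± 0.745 in NZ (-0.62, adjusted p = 0.0426). Myh8, the perinatal myosin heavy chain, had 7.10, 19.2 and 30.2 FPKM as the lowest, median and highest OB values, against 21.0 and 30.8 in the NZ knockouts, 32.3 in the heterozygote and 19.6 and 20.7 in the controls, and did not pass the test (-0.54, adjusted p = 0.225). The spread within OB was wide: the mean deviation of the list was -1.01 in the knockout OB3 and 0.52 in the knockout OB4, against -0.08 to 0.55 over the NZ libraries. The myogenic progenitor list, with the satellite cell factor Pax7 and the early myogenic factor Myf5, gave 0 calls among 12 members and a median of -0.17. In whole limbs, fewer cells of a type and less RNA per cell cannot be told apart.

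Of 18 tested epidermal genes 0 were called higher, 4 were called lower (Krt10, Krt1, Krtdap and Perp) and 16 had a negative difference, with a median of -0.30. Krt10, a keratin made once cells leave the basal layer (chromosome 11, 99385254 to 99389364), ran from 3.19 to 10.6 FPKM in OB with a median of 4.76, against 15.7 and 12.0 in the NZ knockouts, 14.4 in the heterozygote and 9.32 and 10.9 in the controls. Its means were 5.98 ± 2.75 in OB and 12.5 ± 2.60 in NZ (log2 difference -1.17 ± 0.20, adjusted p = 0.0193), and OB2 and OB4 were the OB libraries above the lowest NZ value. Krt1, its pairing partner, was 5.02 ± 3.39 in OB and 11.4 ± 1.58 in NZ (-1.32, adjusted p = 0.0274).

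Krtdap, a keratinocyte differentiation protein (chromosome 7, 30787896 to 30791097), had the lowest difference of the named genes. The OB values split into 15.3, 13.8 and 16.5 FPKM in the knockouts OB2, OB4 and OB5 and 0.245 to 3.46 in the other 6 libraries, against 25.98 and 20.05 in the NZ knockouts, 29.1 in the heterozygote and 9.50 and 13.1 in the controls (-2.39 ± 0.51, adjusted p = 0.0264). Dmkn, a secreted protein of the differentiated epidermis outside the fixed list, was split alike, at 1.12, 1.24 and 1.27 in those 3 knockouts and at most 0.279 in the other OB libraries, against 1.11 to 2.84 in NZ (-1.30, adjusted p = 0.0193). Perp, a desmosome-associated membrane protein, was 47.9 ± 16.7 in OB and 68.8 ± 3.99 in NZ (-0.63, adjusted p = 0.0445). The basal keratins Krt5 and Krt15 did not pass the test: Krt5 was 181 ± 58.0 in OB and 229 ± 18.6 in NZ (-0.43, adjusted p = 0.0978), and Krt15 60.7 ± 17.2 and 76.8 ± 5.79 (-0.42, adjusted p = 0.0812).

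Of the globin genes 1 embryonic gene was called higher in OB and 2 adult genes lower. Embryonic globins (Hba-x, Hbb-y and Hbb-bh1) are the chains of primitive red cells, and adult globins (Hba-a1, Hba-a2, Hbb-b1, Hbb-bs and Hbb-bt) those of definitive red cells from the fetal liver. Their promoters are read by erythroid factors, among them KLF1, which binds the CACCC box, and the 150 bases before the annotated start are shown for 2 embryonic and 2 adult genes of the group to set the 2 types side by side (RefSeq, GRCm38.p6, gene strand, 5′ to 3′). Capitals mark the letters CCACCC or, on the other strand, GGGTGG. Hba-x lies at chr11:32276450-32276599 (+), Hbb-y at chr7:103853208-103853357 (-), Hba-a1 at chr11:32283522-32283671 (+) and Hbb-bt at chr7:103813924-103814073 (-).
Hba-x: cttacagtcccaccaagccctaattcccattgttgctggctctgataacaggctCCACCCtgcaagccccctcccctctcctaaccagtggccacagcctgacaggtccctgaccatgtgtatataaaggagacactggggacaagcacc
Hbb-y: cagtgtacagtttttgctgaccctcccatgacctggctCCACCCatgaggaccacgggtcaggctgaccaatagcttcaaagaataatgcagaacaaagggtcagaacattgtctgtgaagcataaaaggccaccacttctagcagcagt
Hba-a1: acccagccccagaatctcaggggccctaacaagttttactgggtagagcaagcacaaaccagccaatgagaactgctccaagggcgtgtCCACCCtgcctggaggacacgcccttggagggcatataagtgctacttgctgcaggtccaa
Hbb-bt: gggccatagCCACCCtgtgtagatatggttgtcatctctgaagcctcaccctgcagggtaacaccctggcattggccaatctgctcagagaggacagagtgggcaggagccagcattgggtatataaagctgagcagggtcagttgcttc
The letters begin at -96 in Hba-x, -112 in Hbb-y, -61 in Hba-a1 and -141 in Hbb-bt, counted back from the base before the start as -1. Of 8 globin symbols 6 matched a promoter entry, and Hbb-bh1 and Hbb-b1 had none under these symbols. Of the 6 windows 5 hold the letters (not Hbb-bs), against 6487 of 32851 windows of the same length (19.7%). The Hbb-bs window, on the minus strand, begins at base 103827929, where the locus given for Hbb-b1 ends. By position the window without the letters thus lies directly before the called gene Hbb-b1, and both symbols may stand for 1 locus. Embryonic and adult genes of the group thus share the letters, which is a description of these windows alone. The shorter letters CACCC also stand unmarked in the windows of Hbb-bs and Hbb-bt. A window without the marked letters can therefore still hold a CACCC box.

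Hbb-bh1, an embryonic beta-type globin (chromosome 7, 103841637 to 103843164), had the largest difference among the genes called higher in OB. It was 43.5, 80.7 and 118 FPKM as the lowest, median and highest OB values, against 28.8 and 48.2 in the NZ knockouts, 33.4 in the heterozygote and 44.8 and 32.9 in the controls. OB4 alone lay within the NZ range, and the means were 81.1 ± 24.5 in OB and 37.7 ± 8.38 in NZ (log2 difference 1.14 ± 0.21, adjusted p = 0.0193). Hba-x, the embryonic alpha-type chain, was 374 to 684 in OB with a median of 565, against 311 and 509 in the NZ knockouts, 334 in the heterozygote and 422 and 286 in the controls (0.56, adjusted p = 0.0555). Hbb-y, the most abundant of the 3, had overlapping ranges and a difference of 0.19 (adjusted p = 0.494).

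Hbb-b1, an adult beta chain, went the other way. It ran from 206 to 608 FPKM in OB with a median of 415, against 609 and 1032 in the NZ knockouts, 594 in the heterozygote and 800.4 and 693 in the controls, and OB2 was the 1 OB library above the lowest NZ value. The means were 389 ± 138 in OB and 746 ± 180 in NZ (-1.06 ± 0.21, adjusted p = 0.0229). Hbb-bt was lower as well, at 172 ± 49.9 in OB and 276 ± 72.6 in NZ (-0.76, adjusted p = 0.0383), whereas Hba-a1 (-0.18, adjusted p = 0.504) and Hba-a2 (-0.63, adjusted p = 0.179) did not pass the test. The adult beta genes, and Hba-a1 with Hba-a2, are near-identical copies, and Hbb-b1 and Hbb-bs may stand for 1 locus. The split of reads between these symbols is therefore uncertain. Slc4a1, the anion exchanger of the red cell membrane, was higher in OB at 7.05 ± 1.59 against 4.25 ± 1.11 in NZ (0.70, adjusted p = 0.0274), and Kel, a red cell surface antigen outside the fixed list, was 1.73 ± 0.557 against 0.756 ± 0.0933 (0.62, adjusted p = 0.0280).

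The total share of globin did not move with these differences. Globin genes took 0.868% to 1.26% of summed FPKM in OB and 0.877% to 1.43% in NZ. The share of adult genes (Hbb-b1, Hbb-bs and Hbb-bt) within the beta-type globin FPKM, a ratio chosen after the values were seen and summed over near-identical copies, ran from 8.46% to 21.4% in OB with a median of 13.8%. In NZ it was 25.9% and 26.5% in the knockouts, 24.2% in the heterozygote and 22.9% and 28.6% in the controls, so the ranges did not overlap. OA1 stood at 29.2%, OC1 at 36.2% and OC3 at 28.6%, above the highest OB library.

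**Figure D3:**
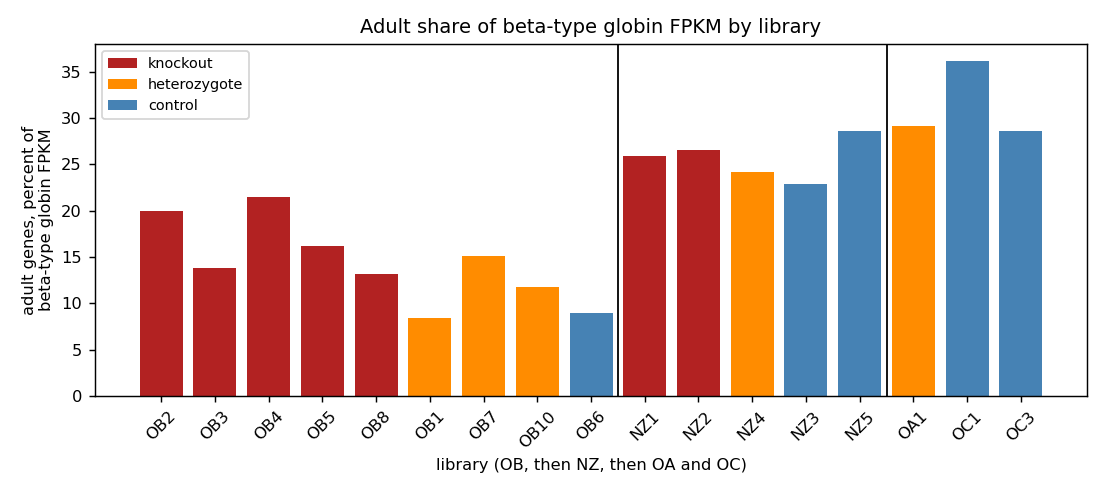
Adult genes (Hbb-b1, Hbb-bs and Hbb-bt) as a percent of the FPKM of all beta-type globin genes (vertical axis, from 0) in each conditional library, coloured by genotype. The OB bars reach at most 21.4%, in OB4, and the lowest NZ bar is 22.9%, in NZ3.

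Genes of early limb patterning gave 1 call higher and 0 lower among 31 tested members, a share below the 4.29% called higher over all genes. The median difference was 0.18, and 25 of the 31 were positive, against 54.5% of all genes tested. The gene called was Fgf8, the growth factor of the apical ectodermal ridge that keeps the limb bud growing, at 1.19, 1.90 and 5.00 FPKM as the lowest, median and highest OB values, against 0.798 and 0.669 in the NZ knockouts, 1.36 in the heterozygote and 1.71 and 1.04 in the controls (log2 difference 0.63 ± 0.16, adjusted p = 0.0392). OB1 held the highest value, and OB2, OB3, OB4 and OB8 lay within the NZ range. Mycn, a progenitor growth factor gene (0.34, adjusted p = 0.0508), Msx2, a distal mesenchyme homeobox gene (0.51, adjusted p = 0.0637), and Hoxd10 (0.38, adjusted p = 0.0758) and Hoxd11 (0.39, adjusted p = 0.0786), which pattern the middle limb segments, did not pass.

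Of the cell cycle genes 8 passed the test, each higher in OB. Each of the 21 tested members had a positive difference, with a median of 0.13 and a range of 0.02 to 0.36, and 8 were called higher and 0 lower. The median stayed positive under median centring, quantile normalisation and with globins left out (0.12 to 0.16). The 8 were the replication helicase subunits Mcm2, Mcm3, Mcm5 and Mcm7, the nucleotide reductase subunit Rrm2, the mitotic kinases Aurka and Plk1 and the S phase factor E2f1. For Mcm7, Aurka, E2f1, Rrm2 and Mcm2 the lowest OB library lay above the highest NZ library, a separation found for 237 of the 12918 genes (1.83%). Mcm7 (chromosome 5, 138164583 to 138172422) was 95.9 to 118 FPKM in OB with a median of 98.1, against 79.6 and 86.0 in the NZ knockouts, 84.6 in the heterozygote and 88.7 and 84.4 in the controls (0.27 ± 0.04, adjusted p = 0.0193). Pcna (0.02, adjusted p = 0.877) and Cdk1 (0.02, adjusted p = 0.895) had almost the same level in both.

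The developmental timing list, of genes that decline or change over fetal life, gave 3 calls higher and 1 lower among 12 members and a median of -0.02. Lin28b, an RNA-binding protein that blocks let-7 maturation in early embryos, was 1.47 ± 0.306 FPKM in OB and 0.938 ± 0.151 in NZ (0.39, adjusted p = 0.0327). Hmga2, a chromatin protein of growing fetal tissue and a let-7 target, was 105 ± 16.9 in OB and 81.4 ± 4.62 in NZ (0.39, adjusted p = 0.0332), and Igf2bp3, a fetal RNA-binding protein, was 41.5 ± 3.31 and 36.8 ± 0.899 (0.18, adjusted p = 0.0444). Plagl1, an imprinted zinc finger gene, was the 1 lower (-0.49, adjusted p = 0.0475). The mesenchymal progenitor list gave 1 of 11 lower, the growth factor Igf1 at 17.6 ± 3.90 in OB and 30.1 ± 7.69 in NZ (-0.64, adjusted p = 0.0418), and a median of -0.05.

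**Figure D4:**
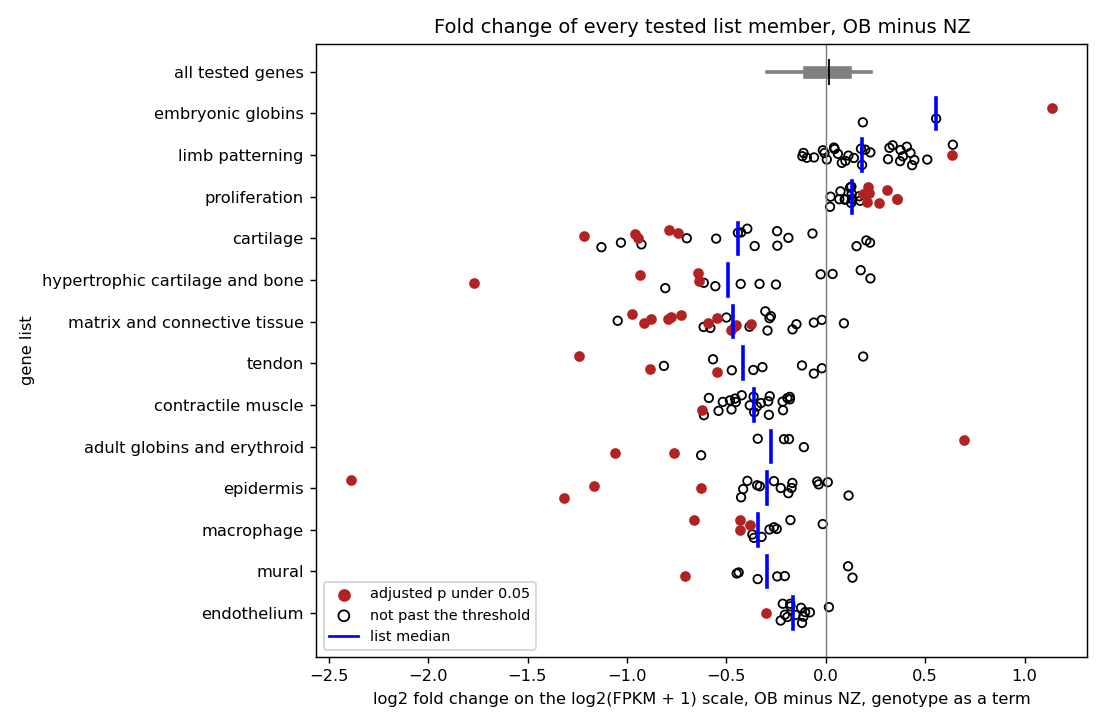
Log2 difference of OB minus NZ (horizontal axis, log2(FPKM + 1) scale, genotype as a term) for each tested member of 13 gene lists, filled where the adjusted p was under 0.05, with a blue line at the list median; the grey bars show the 5th to 95th and 25th to 75th percentiles of all 12918 genes. Proliferation members sit to the right of 0 and contractile muscle members to the left, the epidermal gene farthest left is Krtdap at -2.39, and the globin gene farthest right is Hbb-bh1 at 1.14.

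Lists of immune, vessel and nerve cells gave few calls outside the macrophages. Over all genes 2.45% were called lower and 4.29% higher. Macrophage genes gave 4 of 12 members lower, 0 higher and 12 negative differences, with a median of -0.34: the complement chain gene C1qb was 14.5 ± 2.53 FPKM in OB and 19.7 ± 2.16 in NZ (-0.43, adjusted p = 0.0258), and Lyz2, lysozyme, 7.95 ± 2.18 and 12.9 ± 2.29 (-0.66, adjusted p = 0.0313). Summed macrophage FPKM ran from 74.7 to 123 in OB and from 118 to 143 in NZ. Mural genes gave 1 of 8 lower, Rgs5, a regulator of pericyte signalling, at 1.67 ± 0.673 in OB and 3.44 ± 0.656 in NZ (-0.71, adjusted p = 0.0274), and endothelial genes 1 of 14 lower, Emcn, an endothelial sialomucin (-0.30, adjusted p = 0.0318). Of the neuronal list Tubb3, a neuronal tubulin, was higher at 4.41 ± 0.952 in OB and 2.81 ± 0.440 in NZ (0.52, adjusted p = 0.0283) and Prph, a filament of peripheral axons, was lower (-0.71, adjusted p = 0.0406).

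Lists that follow handling and library composition moved in part with the column letters, and their part in the results above was not tested. Of 12 immediate early and stress genes 4 were lower in OB and 0 higher, with a median of -0.31: Hspa1b, an inducible heat shock protein, was 1.52 ± 0.473 FPKM in OB and 3.16 ± 0.736 in NZ (-0.78, adjusted p = 0.0193), and Hsph1, Fos and Zfp36 were the others. Hypoxia and glycolysis genes gave 0 calls among 15, with a median of 0.03. The 81 cytosolic ribosomal protein genes gave 0 calls, 76 negative differences and a median of -0.16, while with the slope of expression on transcript length as a covariate, added after the data were seen, 24 of them were lower. That slope ran from -0.0423 to 0.0329 in OB and from -0.0339 to 0.0168 in NZ, so OB spanned the NZ values on both sides. Of 4 interferon genes 1 was lower in OB, Bst2 (-0.57, adjusted p = 0.0280), and the 5 X and Y linked genes gave 0 calls.

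Outside the lists, the 10 largest differences higher in OB include Tagln3, a calponin-family gene of neural tissue, at 7.70 to 12.6 FPKM in OB and 5.91 to 7.46 in NZ without overlap (0.60 ± 0.10, adjusted p = 0.0193), and Cyfip2, an actin regulator, at 6.35 to 12.1 and 4.66 to 6.26, again without overlap (0.56, adjusted p = 0.0274). Hsd11b2, the enzyme that inactivates glucocorticoids, was 6.59 ± 2.06 in OB and 3.24 ± 0.516 in NZ (0.84, adjusted p = 0.0221), and Car14, a membrane carbonic anhydrase, 19.1 ± 4.02 and 12.5 ± 1.05 (0.57, adjusted p = 0.0274). Kcnmb4, a potassium channel subunit (0.53, adjusted p = 0.0193), and Hsd3b6, a steroid dehydrogenase (0.53, adjusted p = 0.0429), complete that set with the blood genes and Fgf8. Among the lowest were C1qtnf3, a secreted C1q-family protein of cartilage, at 5.53 ± 3.07 in OB and 11.004 ± 1.95 in NZ (-1.10, adjusted p = 0.0455), and Grp, gastrin-releasing peptide, at 1.84 ± 1.29 and 4.38 ± 1.67 (-1.21, adjusted p = 0.0274). Amd1, an enzyme of polyamine synthesis, was 0.0191 to 0.0348 in OB, against 6.57, 6.23 and 5.92 in NZ1, NZ2 and NZ5 but 0.0183 and 0.0203 in NZ4 and NZ3 (-1.75, adjusted p = 0.0406). Its copy Amd2 was at 10.6, 12.3 and 14.2 FPKM in those 3 NZ libraries and at 16.8 to 21.9 in OB, so the assignment of reads between the copies is uncertain. Of the called genes 17 are predicted genes or pseudogenes, which the rule for named genes leaves out.

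Whether the difference between OB and NZ was the same in knockouts as in the other genotypes was tested with an interaction term, which called 1 of 12918 genes (0.00774%), with 574 at an unadjusted p under 0.05. That gene, the predicted Gm38671, was listed at 0 in the 9 OB libraries, at 6.87 and 5.67 FPKM in the NZ knockouts and at 0 in the other NZ libraries (-2.86, adjusted p = 2.63e-06), and at 10.6 in OA1 and 7.20 in OC3. A p that misses the threshold does not show that the genotypes behaved alike. The list medians of OB minus NZ within knockouts alone were -0.54 for cartilage, -0.50 for hypertrophic cartilage and bone, -0.28 for matrix, -0.25 for tendon, -0.27 for contractile muscle, -0.18 for epidermis, 0.35 for embryonic globins and 0.14 for proliferation. Within heterozygotes, with 1 NZ library, those for matrix, contractile muscle and epidermis were -0.81, -0.78 and -0.47, and within controls, with 1 OB library, -0.47, -0.14 and -0.58.

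The 9 OB libraries also differed among themselves on the genes called between OB and NZ, and other genes were not looked at in this way. For each library the share of the 870 called genes whose value lay nearer the NZ mean than the OB mean was 57.5% in OB4, 45.9% in OB2 and 32.8% in OB5, all knockouts, and 10.8% and 4.25% in the knockouts OB8 and OB3. It was 1.95%, 3.45% and 5.98% in the heterozygotes OB1, OB10 and OB7 and 1.38% in the control OB6, against 84.4% to 95.5% in the NZ libraries. Each library was left out of the mean of its own letters, but the genes were chosen on the same contrast with it included. The shares thus describe the order of the libraries and test nothing. OA1, OC1 and OC3, which entered the minimum of 1 FPKM but not the calls, stood at 79.8%, 85.9% and 76.2%. The tissues did not move as 1 block: OB3 was lowest for muscle (-1.01) and near the OB median for cartilage (-0.05), OB7 was highest of OB for cartilage (0.37) and at -0.34 for epidermis, and OB5 was highest for epidermis (0.52) and at -0.35 for matrix.

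**Figure D5:**
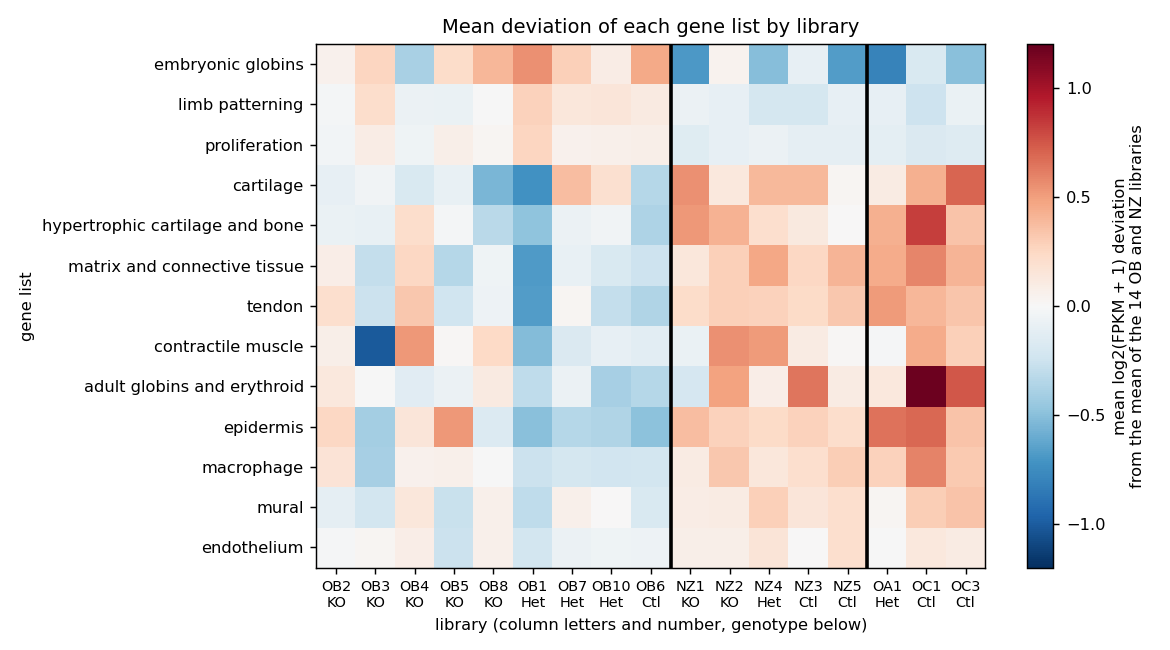
Mean deviation of each gene list (rows) on the log2(FPKM + 1) scale from the mean of the 14 OB and NZ libraries, by library (columns, genotype below; black lines part OB, NZ and the OA and OC libraries; red higher, blue lower). Embryonic globins, limb patterning and proliferation are red in most OB columns and blue in most NZ columns, while single libraries depart from their letters, such as contractile muscle in OB4 (0.52) and epidermis in OB5 (0.52).

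Co-variation of the tissues was tested within OB alone, over 9 libraries and 15 pairs of 6 genes standing for cartilage (Matn3), hypertrophic cartilage (Col10a1), muscle (Myh8), matrix (Dcn), primitive blood (Hbb-bh1) and skin (Krt10), on the log2(FPKM + 1) scale with exact permutation tests, two-sided. Dcn and Hbb-bh1 had a Pearson r of -0.87 (exact permutation p = 0.00366, adjusted over the pairs 0.0351) and a Spearman rho of -0.78 (exact permutation p = 0.0172, adjusted 0.0765). Dcn and Krt10 had r = 0.84 (exact permutation p = 0.00480, adjusted 0.0351) and rho = 0.85 (exact permutation p = 0.00607, adjusted 0.0765). Hbb-bh1 and Krt10 had r = -0.80 (exact permutation p = 0.00702, adjusted 0.0351) and rho = -0.75 (exact permutation p = 0.0255, adjusted 0.0765). These 3 pairs passed after adjustment by Pearson r and 0 of the 15 by Spearman rho.

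Without the 2 libraries farthest from the median of the first gene the 3 values were -0.63, 0.47 and -0.76, and 0 pairs passed after adjustment. For Dcn with Hbb-bh1 and with Krt10 these libraries were OB2 and OB4, and neither relation passed without them. The adjusted exact permutation p was then 0.339 and 0.379 (n = 7). The 5 pairs with Hbb-bh1 were each negative and 9 of the 10 pairs among the other 5 genes positive, the exception being Col10a1 with Myh8 (r = -0.11). The knockouts and the other genotypes were not separated in these correlations, since each holds fewer than 6 OB libraries, and OB2 and OB4 are both knockouts.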

How the data were processed

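Forelimb polyA RNA of 26 libraries went into a stranded mRNA kit, per the labels' protocols, and bcl2fastq, TopHat2, Bowtie2 and Cufflinks with build mm10 are named in the submitters' processing notes, without versions, annotation or strand setting. The authors deposited FPKM per gene symbol, 1 table per knockout strategy. Each held 24340 gene lines and 1 empty line, which was not used, and 27 dates in the conditional table were restored to symbols by matching transcript start and locus in the other table. Without counts or depths, the counting error of low values is unknown.

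Genotype and column letters were read from the column names, and genotype was matched to the labels. Genes averaging 1 FPKM or more over the 17 conditional libraries were tested on log2(FPKM + 1) in the 14 libraries. The model of genotype plus letters was fitted with limma 3.58.1 in R 4.3.3 (lmFit, eBayes with a mean trend). Adjustment was by Benjamini-Hochberg over all tested genes, called at 0.05. Differences on this scale understate the change of low genes, so FPKM stand beside them. The labels do not say that libraries are separate embryos or litters, so p-values reflect only how far these libraries vary, which may be technical. The fits were tested on simulated data.

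The comparison, the 24 lists (345 entries, 343 matched, 4 of them by synonym) and the tests were chosen with earlier results of these data known. Named genes are Hic1, the 10 called genes per direction with the largest difference (predicted and sex-linked genes apart), up to 6 or 3 members per list by p, the genes of the correlations and the identity genes. The result of 1 list is not reported here. Other called list members and genes given after their values were seen are named as such or by their list. Gene positions are from GENCODE M21 and promoter windows from RefSeq (GRCm38.p6). Alternatives were other pseudocounts, filters, scalings, weights, genotype terms and library sets. Scripts used Python 3.11.15, pandas 2.3.3, numpy 2.4.6 and scipy 1.17.1.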

Additional observations from a re-analysis of the deposited data

Results flagged for a closer look

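In 9 of 210 groups of values (105 genes, each in the 9 OB and the 5 NZ libraries) 1 library lay far from the others relative to the range of its group, where chance gives about 5%, and 3 of these were in OB and 6 in NZ. In OB, OB1 was highest for Mcm7 at 118 FPKM (next 105) and for Mycn at 26.3 (next 20.7), and OB2 was highest for Bst2 at 12.6 (next 7.82). In NZ, NZ3 was lowest for 3 stress-response genes, Fos at 2.00 FPKM (next 2.73), Hspa1b at 1.93 (next 3.17) and Hsph1 at 41.8 (next 55.5). NZ1 was lowest for Aurka at 29.1 (next 31.7) and highest for Eya1 at 4.53 (next 3.32), and NZ4 was lowest for Prrx2 at 52.0 (next 65.1). For Gm38671 the difference of OB minus NZ in knockouts departed from that in the other genotypes by -2.86 on the log2 scale, tested by the interaction term.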

How the results depend on the processing

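Leaving out 1 library moved the calls between OB and NZ over 1 to 1268 genes, those between knockout and control over 4 to 27, and the interaction over 1 to 4. Without NZ4 or without OB6 a genotype holds libraries of 1 letter class and adds nothing to the comparison of letters. Against the 870 genes called for OB and NZ, other fits called 557 without the low-value filter, of which 474 were among the 870. With globins left out 285 were called (274 shared with the 870) and with array weights 2080 (864 shared). The length slope as a covariate, an alternative chosen after seeing the data, gave 1626 (870 shared). Fits within 1 genotype gave 2 genes in knockouts, 3 in heterozygotes and 50 in controls, with fewer samples each. Pseudocounts of 0.1 and 5 gave 855 and 900, a minimum of 5 FPKM 884, no genotype term 1107, all 17 libraries 1186, median centring 733 and quantile normalisation 730. For knockout against control, 21 became 12 at a minimum of 5 FPKM and 57 with array weights, and the cause was not tested. Of the single genes, correlations and list medians over all settings, 3042 values were counted as unchanged, 552 lost the threshold and 70 gained it. A further 22 list medians moved and 1 value reversed, Amd1 within heterozygotes at 0.0092. A change of sign was counted as a reversal only where 1 of the fits passed the threshold. The unchanged values thus include changes of sign, such as Xist, at -1.57 to 1.41 with 1 library left out. No paired analysis was possible because each replicate number of the labels holds libraries of 1 letter class, OB or NZ, alone. Depth is unknown, so genes under about 1 FPKM in 1 group, such as Ibsp, Dmkn and Col10a1, carry an error that cannot be given, and a missed threshold shows no likeness.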

Other observations

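The conventional table, of other libraries than OB and NZ, holds knockouts of Hic1 (n = 3), heterozygotes (n = 3) and wild type (n = 3). FPKM of single genes from the comparison between OB and NZ are given there for knockouts and wild type alone. Hbb-bh1 was 69.1, 34.4 and 93.2 FPKM in the conventional knockouts, against 23.9, 26.6 and 18.6 in wild type, and Hbb-b1 was 246, 121 and 83.4 against 313, 344 and 274. Matn3 was 3.87, 6.74 and 5.55 in those knockouts, against 12.6, 13.8 and 12.5 in wild type, Dcn 13.96, 38.4 and 31.1 against 63.1, 77.8 and 72.0, and Krt10 2.90, 4.16 and 2.86 against 10.5, 8.19 and 6.38. Knockouts and wild type did not overlap for these 5 genes, chosen after their values were seen, and the heterozygotes were not included in this. How many of all genes separate in this way is not given here. Col10a1 was 0.677, 0.993 and 0.659 in the knockouts and 2.34, 2.59 and 1.70 in wild type. Myh8 was 15.4, 13.6 and 12.1 against 26.9, 25.7 and 25.8, and neither of these genes overlapped. Among other genes called higher in OB, Fgf8 was 2.97, 2.85 and 2.78 in the knockouts and 0.896, 0.913 and 1.39 in wild type. Mcm7 was 138, 92.2 and 98.1 against 83.4, 81.0 and 81.6, and neither gene overlapped. Hmga2 and Lin28b, also called higher in OB, did overlap. Hmga2 was 48.7, 97.1 and 97.8 in the knockouts and 65.8, 72.9 and 72.5 in wild type. Lin28b was 0.175, 1.74 and 1.076 against 0.734, 1.16 and 1.13. The CH knockout was lowest for Hmga2 and Lin28b.

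Of the 551 genes called higher in OB and tested in both tables, 81.3% had a conventional knockout minus wild type difference above 0, and of the 301 called lower 90.4% had one below 0, with medians of 0.24 and -0.42. Over all 12557 genes tested in both, 63.8% had the same sign in both comparisons. The first value of each knockout trio above is from the library with column letters CH, and without the CH libraries (2 knockouts against 2 wild type) the shares were 91.3% and 94.0%, against 70.4% over all genes. Between the CH libraries alone (1 against 1) they were 73.9% and 73.8%, against 57.9% over all genes. Genes are not independent replicates, and these shares carry no test. For conventional heterozygotes minus wild type the shares were 78.6% and 74.8%, against 60.3% over all genes.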
